A study of Rattus norvegicus with 6 samples.

Results

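The genes described here encode the proteins that carry pyruvate into mitochondria, turn it into acetyl-CoA and run the tricarboxylic acid (TCA) cycle, together with 3 enzymes that feed or drain the cycle. They were chosen by name, from a list of 29 gene symbols of these pathways. Of the 29, 28 were found among the 21857 gene rows of the count table, Idh3b under the spelling Idh3B and Pcx under its other symbol Pc. All 28 passed the filter on low counts, which left 12298 genes in all. Ogdh, for the first subunit of the 2-oxoglutarate dehydrogenase complex, was not analysed here.

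RNA was sequenced from adipose-derived mesenchymal stem cells of Sprague Dawley rats, which are stromal cells grown out of fat. In all 6 libraries the cells were held in high-glucose DMEM made without branched chain amino acids (BCAA: leucine, isoleucine and valine), with 10% FBS, and were exposed to 100 µM hydrogen peroxide for 12 h. The vehicle group (3 libraries) received vehicle and the BCAA group (3 libraries) received 3.432 mM BCAA for the same time. No library without hydrogen peroxide was analysed here. The labels do not say if replicates are different animals or culture dishes; the p-values therefore reflect only how far these libraries vary, part of which may be technical.

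In glucose-fed cells pyruvate from glycolysis enters the mitochondrial matrix through a carrier made of MPC1 and MPC2. The pyruvate dehydrogenase complex then makes acetyl-CoA from it and is switched off by kinases (PDK) and on by phosphatases (PDP). Acetyl-CoA joins oxaloacetate to form citrate, and the cycle oxidizes citrate back to oxaloacetate. Breakdown of leucine, isoleucine and valine also ends at acetyl-CoA and succinyl-CoA, both of which belong to this cycle.

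Library totals lay between 12725344 and 15739731 counts. Mitochondrially encoded genes took 6.58% of the counts in vehicle replicate 1, 4.92% and 4.91% in vehicle replicates 2 and 3, and 5.60% to 6.24% in the BCAA libraries (exact permutation test, two-sided: p = 0.6, where 3 against 3 libraries cannot give less than 0.1). Of 9 stromal markers found, all were tested and none was called, and their summed level was 12110 to 14705 CPM (counts scaled to library size with TMM factors) in vehicle cells and 12808 to 13686 CPM in BCAA cells. Endothelial markers summed to at most 5.5 CPM, with Cdh5, Kdr and Vwf under 1 CPM in every library, and adipocyte markers to at most 11.0 CPM, with Adipoq, Plin1, Cidec and Lep under 1 CPM. Of 5 epithelial and mesothelial markers 4 were under 1 CPM, and only the mesothelial gene Msln was tested (67.4 CPM with vehicle, 70.0 CPM with BCAA). Macrophage and leukocyte markers (6 of 6 tested, none called) summed to 834.7 to 1000.5 CPM in vehicle cells and 772.7 to 830.5 CPM in BCAA cells, so the groups did not overlap. Most of this sum was Lyz2 (log2 fold change -0.20), which with Cd14 (-0.12) was lower in sign, while Ptprc, Cd68, Adgre1 and Csf1r were higher in sign (0.05 to 0.10). Smooth muscle markers summed to 879.8 to 945.0 CPM in vehicle cells and 601.2 to 629.4 CPM in BCAA cells. Tagln made up most of the sum (794 CPM with vehicle, 519 CPM with BCAA). Of the 5 tested, 2 (Tagln and Acta2) were called lower, beside 0.228% of all genes called in either direction. Cnn1, Myh11 and Des were lower in sign and not called, and Rgs5 was under 1 CPM. The part of these marker differences in the values below was not tested. In bulk libraries a lower share of one cell type and less RNA per cell cannot be told apart.

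None of the 28 genes passed the threshold used, an adjusted p under 0.05 (edgeR quasi-likelihood test, Benjamini-Hochberg over all 12298 genes), where 0.228% of all genes were called. DESeq2 called 0 of the 25 members it gave an adjusted p, beside 1.59% of all genes with one. It gave none for Pdk2, Pdk4 and Ogdhl. At an unadjusted p under 0.05 there were 3 of 28 (Fh, Idh2 and Pdk4), beside 11.8% of all genes tested. The groups' libraries were fully separate for 5 of 28 (Pdha1 higher, and Idh2, Dlst, Fh and Mdh2 lower with BCAA), beside 18.1% of all genes. Both counts are near the background, so they show nothing particular to these genes.

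The differences were small where the counts were high. The median log2 fold change (BCAA against vehicle) was -0.04 over the 28 genes, beside 0.00 over all genes tested, and 19 were lower and 9 higher in sign (49.2% of all genes were lower). Without scaling factors all genes moved up together: 15 members were lower and 13 higher, beside 42% lower of all genes, and the medians were -0.01 and 0.03. Without vehicle replicate 1, 16 members were lower and 12 higher, beside 47.9% lower of all genes, and the medians were -0.01 and 0.01. In the main fit the median standard error (SE) was 0.08, beside 0.11 over all genes. The 95% interval of the fold change, not adjusted for the number of genes, lay wholly within 1.3-fold either way for 22 of 28 genes (51.5% of all genes tested) and within 1.5-fold for 27 of 28 (74.4% of all). Mpc1, Pdk2, Pdk4, Idh2, Ogdhl and Pcx reached past the narrower band. Such an interval narrows with the number of counts, so these shares follow the level of a gene as well as its change. Pdk4 was the gene that reached past the wider band.

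**Figure D1:**
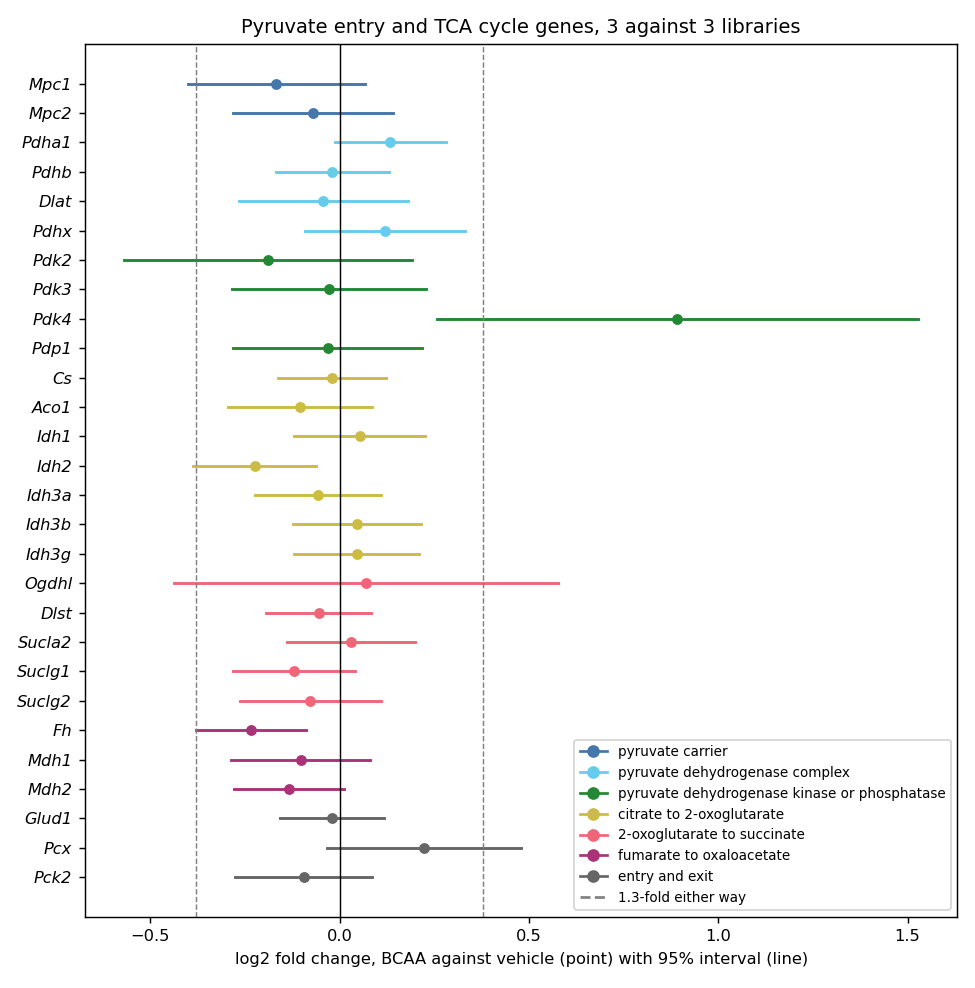
Log2 fold change (horizontal axis, BCAA against vehicle) of the 28 genes, ordered and coloured by step, with the point at the estimate, the line its 95% interval and dashed lines at 1.3-fold either way. Most lines cross 0 and stay within the dashed lines; those of Fh and Idh2 lie below 0 (down to -0.38 and -0.39), and that of Pdk4 runs from 0.26 to 1.53.

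The carrier genes did not pass. Mpc1, which encodes one partner of the mitochondrial pyruvate carrier, was at 42.5, 36.2 and 35.8 CPM in vehicle replicates 1 to 3 and at 29.4, 34.9 and 37.9 CPM in BCAA replicates 1 to 3. The groups overlapped, with the highest level in vehicle replicate 1 and the lowest in BCAA replicate 1 (log2 fold change -0.17, SE 0.11, edgeR adjusted p = 0.58). Mpc2, the other partner, was at 28.3 to 30.7 CPM in vehicle cells and 25.7 to 30.9 CPM in BCAA cells (log2 fold change -0.07, SE 0.10).

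The pyruvate dehydrogenase complex is built from E1 (an alpha and a beta subunit, Pdha1 and Pdhb), E2 (Dlat), the binding protein Pdhx and E3 (Dld). Pdha1, whose product carries the sites that the kinases phosphorylate, was at 102, 99.0 and 98.4 CPM in vehicle cells and at 116, 106 and 106 CPM in BCAA cells. Every BCAA library was above every vehicle library, by a small margin for 2 of the 3 (log2 fold change 0.13, SE 0.07, adjusted p = 0.47). Its partner Pdhb was at 73.6 ± 1.04 and 72.6 ± 2.24 CPM (SD, n = 3 each) with a log2 fold change of -0.02 (SE 0.07). Dlat, the acetyltransferase core, had a log2 fold change of -0.04 (SE 0.10), and Pdhx 0.12 (SE 0.10). Dld, which the 2-oxoglutarate and branched chain ketoacid dehydrogenases share and which is not one of the 28, had -0.06 (SE 0.07). The 95% intervals of the E1 subunit genes Pdha1 (-0.01 to 0.28) and Pdhb (-0.17 to 0.13) overlapped, and the difference between subunits was not tested.

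The kinases that switch the complex off gave the largest fold change of the 28, on few counts. Pdk4, a kinase gene known to be induced by fasting and fatty acids, had 18, 30 and 29 counts in the vehicle libraries and 59, 60 and 29 in the BCAA libraries. These are 1.29, 1.90 and 2.27 CPM in vehicle cells and 3.98, 3.80 and 2.27 CPM in BCAA cells. BCAA replicates 1 and 2 lay above all vehicle libraries, while BCAA replicate 3 was at the level of vehicle replicate 3, so the groups overlapped. The mean was 1.86-fold higher with BCAA (log2 fold change 0.89, SE 0.30), with an unadjusted p of 0.0093 and an edgeR adjusted p of 0.25. Over the alternatives that gave one, the adjusted p of Pdk4 ran from 0.15 to 0.63. DESeq2 gave none for Pdk4.

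The other kinases and the phosphatase had smaller differences, none of which passed. Pdk2 was at 5.66, 6.03 and 4.78 CPM in vehicle cells and 4.66, 5.13 and 4.70 CPM in BCAA cells (log2 fold change -0.19, SE 0.18). Pdk3 was at 17.5, 16.3 and 16.2 CPM in vehicle cells and 15.6, 15.02 and 18.6 CPM in BCAA cells (log2 fold change -0.03, SE 0.12), so the groups overlapped for both. Pdk1, a hypoxia-induced kinase outside the 28, was at 57.9, 65.1 and 64.7 CPM in vehicle cells and 71.3, 68.9 and 69.0 CPM in BCAA cells. For Pdk1 all BCAA libraries were the higher ones (log2 fold change 0.16, SE 0.08, adjusted p = 0.44). The phosphatase gene Pdp1 was at 17.7 ± 1.55 CPM in vehicle cells and 17.2 ± 1.43 CPM in BCAA cells.

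**Figure D2:**
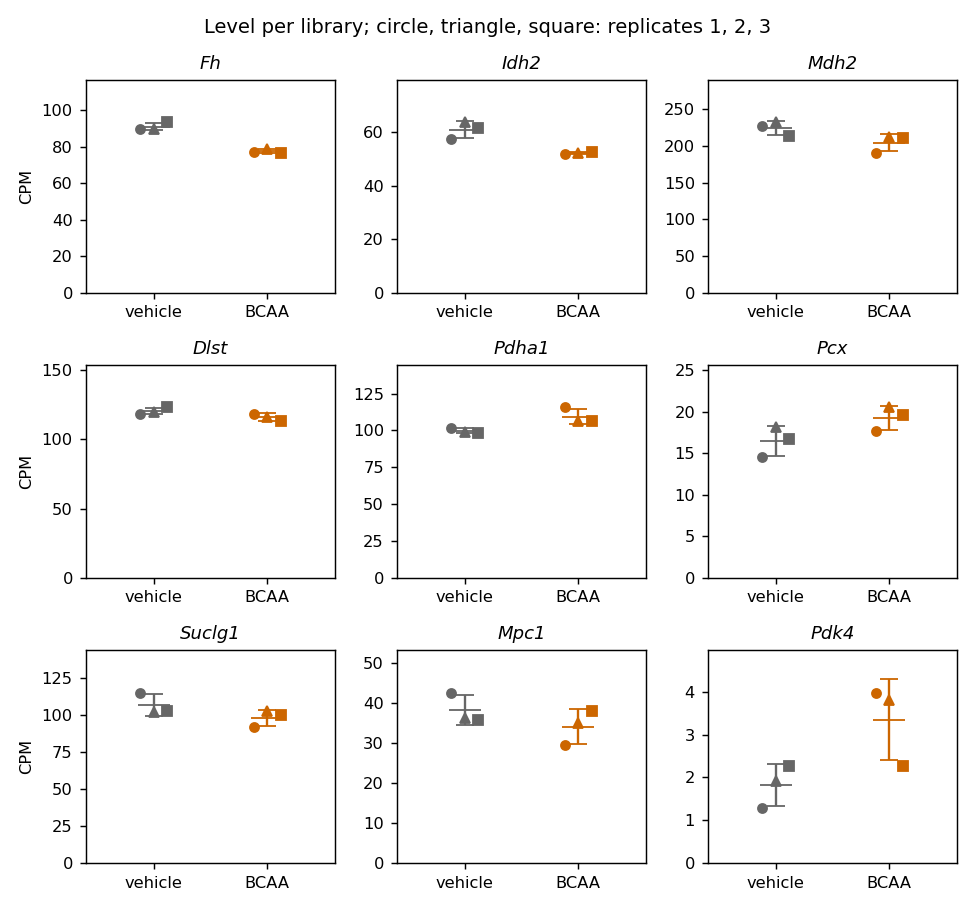
CPM per library for 9 of the genes, those with the 8 smallest p-values and Dlst; horizontal bars are group means, whiskers the SD (n = 3), and circle, triangle and square are replicates 1, 2 and 3, with each vertical axis starting at 0. The groups are apart for Fh (76.7 to 78.6 CPM with BCAA, 89.7 to 93.3 CPM with vehicle) and Idh2, nearly touch for Mdh2 and Dlst, and overlap for Pdk4.

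In the steps from oxaloacetate and acetyl-CoA to 2-oxoglutarate, Idh2 had the smallest p. It encodes the mitochondrial isocitrate dehydrogenase that makes NADPH. Idh2 was at 57.5, 63.7 and 61.4 CPM in vehicle cells and at 51.7, 52.3 and 52.5 CPM in BCAA cells. All BCAA libraries lay below all vehicle libraries and close to each other, for a 1.17-fold lower mean (log2 fold change -0.22, SE 0.08, 95% interval -0.39 to -0.06). Idh2 did not pass, with an edgeR adjusted p of 0.27 (0.011 before adjustment). Idh1, for the cytosolic enzyme of the same reaction, was at 62.3 ± 5.48 CPM in vehicle cells and 64.6 ± 0.714 CPM in BCAA cells (log2 fold change 0.05, SE 0.08).

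The 3 subunits of the NAD-dependent isocitrate dehydrogenase, which serves the cycle itself, had 95% intervals within 1.3-fold either way. Idh3a, the catalytic subunit, had a log2 fold change of -0.06, and Idh3b and Idh3g 0.05 each, with SEs of 0.08. Cs, for citrate synthase, was at 119 ± 1.62 CPM in vehicle cells and 118 ± 5.61 CPM in BCAA cells (log2 fold change -0.02, SE 0.07, 95% interval -0.16 to 0.12). Aco1, for the cytosolic aconitase that doubles as an iron-regulated RNA-binding protein, was at 43.2 ± 2.11 and 40.2 ± 3.22 CPM (log2 fold change -0.10, SE 0.09).

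From 2-oxoglutarate to succinate no gene had an unadjusted p under 0.05. Dlst, the E2 core of the 2-oxoglutarate dehydrogenase complex, was at 119, 120 and 123 CPM in vehicle cells and 119, 116 and 113 CPM in BCAA cells, where the highest BCAA library lay just under the lowest vehicle library (log2 fold change -0.06, SE 0.06). Ogdhl, a tissue-restricted relative of Ogdh, was at 2.84 ± 0.489 and 3.00 ± 0.315 CPM, and its interval (-0.44 to 0.58) is wide. Suclg1, the subunit common to both forms of succinyl-CoA ligase, was at 115, 102 and 103 CPM in vehicle cells and at 92.3, 103 and 100.0 CPM in BCAA cells. The groups overlapped, with vehicle replicate 1 high and BCAA replicate 1 low (log2 fold change -0.12, SE 0.08, adjusted p = 0.56). Sucla2, which gives the ligase its use of ADP, had 0.03 (SE 0.08) and Suclg2, which gives it its use of GDP, -0.08 (SE 0.09). Succinate dehydrogenase, the next enzyme and also respiratory complex II, is not in the list, and Sdha, Sdhb, Sdhc and Sdhd had log2 fold changes of 0.03, -0.09, -0.09 and 0.03 with adjusted p from 0.62 to 0.92.

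Fh, the fumarase gene, had the smallest p of the 28. Its levels were 89.7, 89.9 and 93.3 CPM in vehicle cells and 76.8, 78.6 and 76.7 CPM in BCAA cells. The groups were apart, with little spread within each (91.0 ± 2.06 and 77.4 ± 1.08 CPM, SD, n = 3). The mean was 1.18-fold lower with BCAA (log2 fold change -0.23, SE 0.07, 95% interval -0.38 to -0.09), with an unadjusted p of 0.0039 and an edgeR adjusted p of 0.18.

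Malate dehydrogenase completes the cycle. Mdh2, the mitochondrial form, was at 228, 232 and 213 CPM in vehicle cells and at 190.5, 212 and 211 CPM in BCAA cells. All BCAA values were below all vehicle values, with little between the nearest libraries (log2 fold change -0.13, SE 0.07, adjusted p = 0.46). The cytosolic form Mdh1 was at 153 to 191 CPM in vehicle cells and 147 to 169 CPM in BCAA cells (log2 fold change -0.10, SE 0.09), and its groups overlapped.

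Leaving out vehicle replicate 1 changed the call of 2 of the 28. That library had the highest mitochondrially encoded share of the 6, and leaving it out moved the difference in that share (BCAA minus vehicle) from 0.403 to 0.958 percentage points (exact permutation p = 0.1, the smallest that 2 against 3 libraries can give). It also stood apart in its counts over genes, with a chi-square per degree of freedom of 16.9 and 15.1 from vehicle replicates 2 and 3, which were at 2.65 from each other. From BCAA replicates 1, 2 and 3 it was at 18.1, 15.8 and 9.4, so its nearest library was a BCAA one. The part of this in the calls was not tested. Without it 500 of 12298 genes (4.07%) passed, 271 of them lower (2.20%). Among the 500 were Fh (log2 fold change -0.24, adjusted p = 0.037) and Idh2 (log2 fold change -0.26, adjusted p = 0.043), and no other member. The sizes of both differences moved little, since they were -0.23 and -0.22 with all libraries. Without any one of the other 5 libraries 0 of 28 were called, where 7 to 11 genes were called in all. Over the alternatives the adjusted p ran from 0.037 to 0.44 for Fh and from 0.043 to 0.55 for Idh2.

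The promoter sequences of Fh and Idh2 are shown because these were the genes whose call turned on 1 library, and that of Pdk4 because it had the largest fold change. Each is the 250 bases before the gene start in RefSeq's GRCr8 assembly, 5′ to 3′ along the gene. They lie at chr13:90082451-90082700 on the minus strand (Fh), chr1:143467249-143467498 on the minus strand (Idh2) and chr4:34568330-34568579 on the minus strand (Pdk4). Capitals mark matches, on either strand, to CCAAT (the NF-Y box) and GGGCGG (the SP1 GC box).
Fh: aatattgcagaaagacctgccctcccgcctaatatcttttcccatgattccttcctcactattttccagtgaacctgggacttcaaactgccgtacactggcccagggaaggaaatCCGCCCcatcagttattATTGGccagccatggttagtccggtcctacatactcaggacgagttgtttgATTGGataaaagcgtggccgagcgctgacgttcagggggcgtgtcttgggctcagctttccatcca
Idh2: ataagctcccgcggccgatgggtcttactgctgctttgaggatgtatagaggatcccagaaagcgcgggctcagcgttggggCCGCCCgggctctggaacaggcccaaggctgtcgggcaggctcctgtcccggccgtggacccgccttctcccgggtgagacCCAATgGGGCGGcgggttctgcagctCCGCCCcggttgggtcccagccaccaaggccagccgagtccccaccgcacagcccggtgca
Pdk4: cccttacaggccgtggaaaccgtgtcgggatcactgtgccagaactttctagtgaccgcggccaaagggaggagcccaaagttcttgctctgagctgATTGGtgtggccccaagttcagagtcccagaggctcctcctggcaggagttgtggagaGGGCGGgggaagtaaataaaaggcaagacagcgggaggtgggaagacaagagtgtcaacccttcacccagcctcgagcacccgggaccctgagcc
Each of the 3 held both letter strings. A promoter was found for 25 of the 28 genes. Over those 25, GGGCGG or its reverse CCGCCC was in 18 (72%), beside 30.5% of all 33465 promoters of the same length, and CCAAT or ATTGG in 13 (52%), beside 34% of all. CCGGAAG (an ETS core as bound by GABPA, a known regulator of mitochondrial genes) was in 6 (24%), beside 7.27%: Mpc2, Idh3b, Idh3g, Dlst, Mdh2 and Glud1. GCGCATGC (a core of the NRF1 site) was in 1, Glud1 (4%, beside 2.2%), AAGATGGC (YY1) in 1, Idh3g (4%, beside 1.63%), and AGGTCA (a half-site of nuclear receptors such as the PPARs) in 2, Dlat and Ogdhl (8%, beside 14.1%). Both strands were searched for each string, and overlapping matches to different strings were each counted. The median GC content was 62.4% in the 25 and 51.2% in all promoters, and GC-rich strings are more frequent where GC content is high. The set of all promoters was not limited to the genes tested, while the members all passed the filter on low counts. A match is a string of letters and not a bound site.

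Enzymes that link the cycle to amino acids and to glucose synthesis did not pass. Glud1, the glutamate dehydrogenase that delivers 2-oxoglutarate, was at 149 ± 6.16 CPM in vehicle cells and 147 ± 1.75 CPM in BCAA cells (log2 fold change -0.02, SE 0.06, 95% interval -0.16 to 0.12). Pcx, for the pyruvate carboxylase that refills oxaloacetate, was at 14.6, 18.2 and 16.8 CPM in vehicle cells and at 17.7, 20.5 and 19.6 CPM in BCAA cells. One vehicle library (replicate 2) lay above the lowest BCAA library (log2 fold change 0.22, SE 0.12, adjusted p = 0.49). Pck2, the mitochondrial phosphoenolpyruvate carboxykinase, which ATF4 is known to induce, was at 50.2 ± 3.90 CPM in vehicle cells and 47.0 ± 1.83 CPM in BCAA cells (log2 fold change -0.10, SE 0.08).

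**Figure D3:**
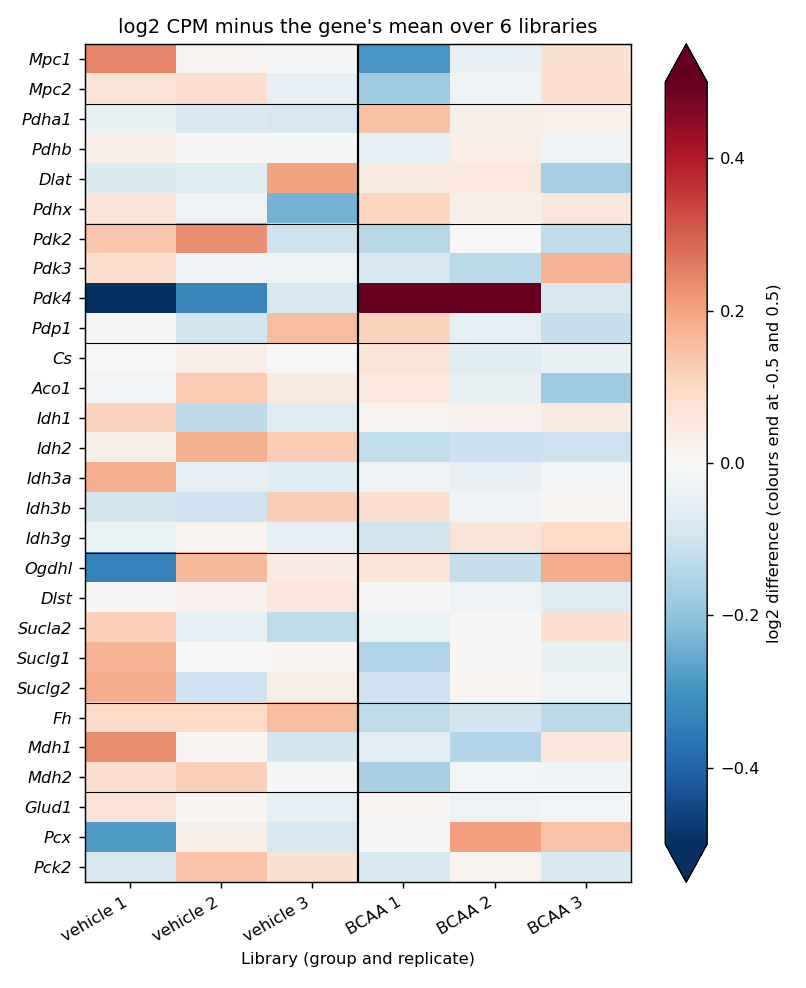
Each cell is the log2 CPM of 1 gene in 1 library minus that gene's mean over the 6 libraries; rows are the 28 genes by step, columns are vehicle replicates 1 to 3 and BCAA replicates 1 to 3, red is above and blue below the mean. Fh and Idh2 are above the mean in all vehicle libraries and below it in all BCAA libraries. Mpc1, Idh1, Idh3a, Sucla2, Suclg1, Suclg2, Mdh1 and Glud1 are highest in vehicle replicate 1.

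The genes also varied among libraries of the same group. Vehicle replicate 1 was the highest of the 6 libraries for 8 of 28 genes (28.6%, beside 23.6% of all genes tested) and the lowest for 3 (10.7%, beside 24.7% of all). BCAA replicate 1 was the lowest for 9 of 28 (32.1%, beside 19.3% of all). These are descriptions and were not tested. For most of the genes the difference between group means was smaller than the range of the vehicle libraries. The exceptions were Pdha1, Pdk4, Idh2, Dlst, Fh and Mdh2.

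**Figure D4:**
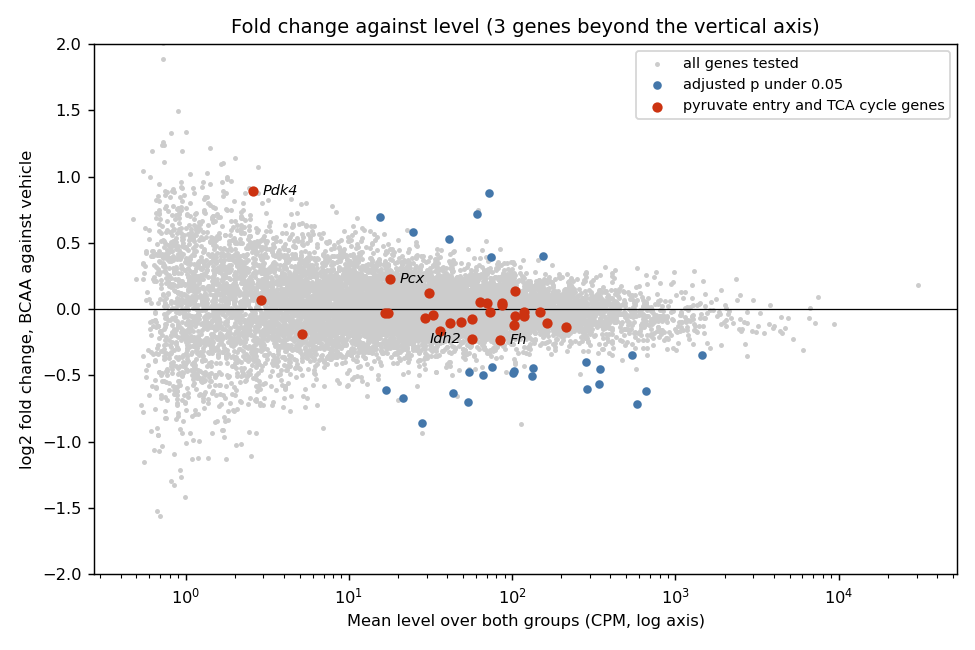
Log2 fold change (vertical axis) against mean level (CPM, log axis) for all 12298 genes tested (grey), the 28 called genes (blue) and the 28 pyruvate entry and TCA cycle genes (red); 3 genes lie beyond the vertical axis. The red points lie inside the grey cloud, with Pdk4 (0.89) at the low end of the levels.

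Of 59 further genes of the same pathways, a list of remaining enzymes, carriers and cofactor steps, 58 were found, 49 passed the filter and none was called by edgeR or, among the 36 it gave an adjusted p, by DESeq2. At an unadjusted p under 0.05 there were 4, beside 11.8% of all genes. Their median log2 fold change was 0.01. Slc16a1, the plasma membrane carrier of lactate and pyruvate MCT1, was at 218 to 231 CPM in vehicle cells and 249 to 253 CPM in BCAA cells (log2 fold change 0.15, SE 0.06, adjusted p = 0.33), with no overlap. Dhtkd1, a 2-oxoadipate dehydrogenase related to Ogdh, was at 6.88 to 7.37 CPM in vehicle cells and 3.87 to 5.81 CPM in BCAA cells (-0.46, SE 0.19). Ldhb, a lactate dehydrogenase subunit, had -0.27 (SE 0.12), and Gpt2, the mitochondrial alanine transaminase, 0.29 (SE 0.13). Pdk1, given above, came next by p, followed by Oxct1, which activates ketone bodies (0.18, SE 0.09).

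Of 17 regulators of these genes 15 passed the filter and none was called by edgeR or, among the 12 it gave an adjusted p, by DESeq2. An unadjusted p under 0.05 was seen for 4, all higher in sign, beside 11.8% of all genes in either direction. Hif1a, the hypoxia factor that induces Pdk1, was at 646 to 719 CPM in vehicle cells and 773 to 835 CPM in BCAA cells (log2 fold change 0.24, SE 0.06, edgeR adjusted p = 0.14). With DESeq2 the adjusted p of Hif1a was 0.052, just above the threshold. Nr3c1, the glucocorticoid receptor, was at 320 to 357 and 365 to 408 CPM (0.17, SE 0.07, adjusted p = 0.35). Without vehicle replicate 1 both were called, beside 4.07% of all genes. Their edgeR adjusted p was then 0.0029 for Hif1a and 0.038 for Nr3c1. Over the alternatives the adjusted p ran from 0.0029 to 0.48 for Hif1a and from 0.038 to 0.75 for Nr3c1. Foxo3, a FOXO transcription factor, had 0.37 (SE 0.14) and the insulin receptor gene Insr 0.24 (SE 0.10). Myc had -0.14 (SE 0.07), and Ppargc1a, the PGC-1alpha coactivator of mitochondrial genes, was under 1 CPM in every library (log2 fold change -0.47, SE 0.43).

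Levels were not compared between the 28 genes, because transcript lengths were not used. The marker sums above add CPM over genes without regard to length. Of the 28, 9 overlap another gene, and 5 of these a protein-coding one (Mpc2 with Adcy10, Pdha1 with Map3k15, Idh3b with Nop56, Dlst with Prox2 and Pcx with Lrfn4), as RefSeq lists them in GRCr8. The strand setting of the counting is not given in the sources used here, so reads of such pairs cannot be told apart with certainty.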

How the data were processed

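The authors deposited 1 table of raw counts, by gene symbol and library, neither normalized nor pooled. Trimmomatic, FastQC, STAR, HTSeq and the build rn6 are named per the submitters' processing notes; versions, annotation and strand setting were not given in the sources used here. RNA was extracted with TRIzol and libraries were made with a NEBNext Ultra kit, per the labels' protocols. Depth was 12725344 to 15739731 counts, and the 12298 genes tested held 99.9% of them. Groups were taken from the titles, which match the column names. Chi-square per degree of freedom was 2.65 to 18.1 over the 15 library pairs, so no library was a copy of another.

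Counts were tested with edgeR 4.0.16 (R 4.3.3; quasi-likelihood, robust, TMM, filterByExpr with a minimum count of 10 and total of 15), group only, with Benjamini-Hochberg adjustment over all genes tested. The SE was the size of the log2 fold change divided by the square root of F, and the 95% interval used the t quantile. Alternatives were DESeq2 1.42.0, other scaling, no filter, no robust estimation, each library left out (same genes tested) and the replicate number as a block. The fit was tested on simulated data. Of the genes, all members were described, those with the 8 smallest p and the PDK genes per library, and up to 6 further genes and regulators by smallest p. One further gene is not reported here. Members and lists were chosen with earlier results of these data known.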

Additional observations from a re-analysis of the deposited data

How the results depend on the processing

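The counts of calls depended on the processing. Over all genes 28 were called, and the number was 138 with DESeq2, 124 without the low-count filter, 6 with the replicate number as a block and 7 to 500 with 1 library left out, the highest without vehicle replicate 1. Among the 28 members 0 were called under every alternative but the one without vehicle replicate 1, so leaving out 1 library gave 0 to 2. DESeq2 gave no adjusted p for Pdk2, Pdk4 and Ogdhl, so it could not call them. For the further genes and regulators leaving out 1 library also gave 0 to 2, the 2 again without vehicle replicate 1, and the other alternatives gave 0. Same-numbered libraries share no stated source, and their correlations of deviations were -0.07, 0.11 and -0.15. Their totals were close, with 14484051 (vehicle) and 14482260 (BCAA) counts for replicate 1. For replicate 2 they were 15739731 and 15654060, and for replicate 3 they were 12725344 and 12802663. If same-numbered libraries were handled together was not tested. The numbers were not taken as pairs in the main fit, and the block called no member. Signs near 0 turned. Without scaling factors Pdhb was at 0.010, Pdk3 at 0.002, Cs at 0.011 and Glud1 at 0.010 (log2 fold changes). With 1 library left out, Cs ran from -0.062 to 0.006, Dlat from -0.087 to 0.049, Glud1 from -0.050 to 0.013, Idh3a from -0.098 to 0.030, Ogdhl from -0.059 to 0.182, Pdk3 from -0.126 to 0.033, Pdp1 from -0.102 to 0.038, Sucla2 from -0.023 to 0.103, Suclg2 from -0.150 to 0.004, Sdha from -0.059 to 0.120 and Sdhd from -0.002 to 0.063. The cause was not tested. Pdk4, Ogdhl and Pdk2, on the fewest counts, had the largest SEs of the 28.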

Other observations

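Of the further pathway genes, 9 were under the low-count filter. Slc25a22, a mitochondrial glutamate carrier, and Pdha2, the testis form of the E1 alpha subunit, had 0 counts in all 6 libraries, which allows up to 0.191 to 0.236 CPM (3 counts per library, counting error only). Pck1, the cytosolic phosphoenolpyruvate carboxykinase, had 5 counts in vehicle replicate 1 and 0 in the other libraries. Slc25a18, a second mitochondrial glutamate carrier, had 0, 3 and 1 counts with vehicle and 9, 3 and 7 with BCAA. The regulator Pparg, the adipocyte transcription factor, had 2, 4 and 2 counts with vehicle and 15, 6 and 1 with BCAA, so its groups overlapped. These genes were not tested.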
